A study of Saccharomyces cerevisiae with 26 samples.

Results

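The response of Saccharomyces cerevisiae to 50% CO2 was examined by RNA sequencing of glucose-limited, aerobic chemostat cultures held at pH 5. The strain, CEN.PK113-7D, is a prototrophic haploid laboratory strain without engineered changes, and 1 strain was used throughout. Of the 26 libraries of the series, 3 came from cultures sparged with a mix of compressed air and pure CO2 (50% CO2) and 3 from cultures sparged with compressed air (0.04% CO2), both at a dilution rate of 0.025 per hour. The mixing also lowered the oxygen content of the inlet gas, and the effects of both gases cannot be told apart. A further 6 libraries at the same dilution rate and pH 3 entered the same fit, 3 at 0.04% CO2 and 3 at 50% CO2. Of the latter, 1 was labelled as a chemostat and 2 were the first sampling point of retentostats, before cell retention. All of these cultures received synthetic medium with glucose as the carbon source and additional iron and biotin. The labels number the libraries within a group but do not tie each of them to a separate culture, so that p-values measure the spread between these libraries. The genes examined were the 5091 of 6600 that had a mean of at least 10 FPKM (fragments per kilobase of gene, relative to sequencing depth) over the 6 libraries at pH 5. USA1 lay just inside this limit with a mean of 10.012 FPKM, and WHI5 lay just outside it with 9.9996 FPKM. Since the mean spans both groups, a gene could reach the limit through 1 group alone. Among the genes named below, YAR068W, FET4 and YJL047C-A reached it through 50% CO2. Others, such as FIG1 and CIN5, reached it through 0.04% CO2.

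In water, CO2 equilibrates with bicarbonate, which several carboxylating enzymes use as a substrate, and carbonic anhydrase speeds this conversion where CO2 is scarce. The enzymes of gluconeogenesis and of the glyoxylate cycle allow growth on compounds such as ethanol and acetate, and their genes are repressed by glucose. Haploid cells of mating type a secrete a-factor and carry the receptor for alpha-factor, from which a kinase cascade leads to the transcription factor Ste12. Ste12 binds pheromone response elements with the letters TGAAACA.

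Promoters of selected genes were each searched for a short motif, and those without a match are named below the sequences. The promoters of 4 genes that were lower at 50% CO2 are shown because they hold short motifs of the pathways to which these genes belong. Each was read from genome build R64, runs from 250 bases before to 50 bases after the first base of the start codon, and is written 5′ to 3′ on the strand of its gene. The windows lie at chrXIV:110667-110966 for PRM1, chrIII:71553-71852 for FUS1 and chrXIV:703449-703748 for AGA1, all on the plus strand, and at chrX:135884-136183 on the minus strand for INO1. Capitals mark TGAAACA in the promoters of the mating genes PRM1, FUS1 and AGA1, and CATGTG, the core of the element bound by Ino2 and Ino4, in that of the inositol synthesis gene INO1, each searched on both strands.
PRM1: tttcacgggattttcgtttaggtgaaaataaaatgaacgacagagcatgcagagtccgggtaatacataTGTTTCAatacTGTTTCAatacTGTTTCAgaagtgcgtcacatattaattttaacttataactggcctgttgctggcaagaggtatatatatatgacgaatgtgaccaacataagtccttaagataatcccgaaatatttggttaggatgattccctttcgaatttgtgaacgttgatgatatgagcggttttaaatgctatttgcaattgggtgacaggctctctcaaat
FUS1: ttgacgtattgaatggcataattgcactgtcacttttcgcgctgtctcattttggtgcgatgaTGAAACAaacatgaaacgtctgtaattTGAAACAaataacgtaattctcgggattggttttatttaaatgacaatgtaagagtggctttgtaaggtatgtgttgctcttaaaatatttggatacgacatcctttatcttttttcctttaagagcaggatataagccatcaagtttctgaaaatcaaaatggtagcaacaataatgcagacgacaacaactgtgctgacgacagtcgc
AGA1: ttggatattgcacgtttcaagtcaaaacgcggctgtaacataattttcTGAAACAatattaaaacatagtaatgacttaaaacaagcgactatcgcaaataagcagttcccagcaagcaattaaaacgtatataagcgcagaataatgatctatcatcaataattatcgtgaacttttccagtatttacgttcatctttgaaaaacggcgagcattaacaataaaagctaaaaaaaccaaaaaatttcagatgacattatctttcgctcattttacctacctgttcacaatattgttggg
INO1: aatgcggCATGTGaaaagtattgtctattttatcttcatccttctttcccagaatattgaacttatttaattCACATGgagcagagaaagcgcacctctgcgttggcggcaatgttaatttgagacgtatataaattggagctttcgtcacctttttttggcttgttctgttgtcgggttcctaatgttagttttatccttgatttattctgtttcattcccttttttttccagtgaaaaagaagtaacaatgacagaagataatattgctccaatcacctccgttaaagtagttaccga
PRM1 held 3 copies of TGAAACA, FUS1 held 2 and AGA1 held 1, and INO1 held 2 copies of CATGTG. The INO1 window also holds 1 TGAAACA on the strand opposite to the gene, which is left in lower case. Among the promoters of all 5001 tested genes with a position in R64, 7.36% held TGAAACA and 6.64% held CATGTG. No match was found for NCE103 and PDR12 with the core bound by basic leucine zipper factors. Nor was one found for PCK1, FBP1, ICL1 and SFC1 with the carbon source response element core. That core was in 10.2% of all tested promoters and in 2 of 10 of the gluconeogenesis and glyoxylate list. FIG1 and MFA1 held no TGAAACA. Among the differentially expressed genes defined below, CATGTG was in 1 of 23 downregulated (4.35%) and 1 of 5 upregulated promoters. A match describes the letters only.

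Between 12528649 and 14620302 reads were counted on genes in the 6 libraries at pH 5. FPKM values were scaled by 1 factor per library before any comparison and are given below as scaled FPKM. Replicate 3 at 0.04% CO2 and replicate 1 at 50% CO2 stood apart from their groups. Their deviations from their group mates correlated across the 5091 genes with r = 0.846, and their log2 levels correlated more strongly with each other (r = 0.978) than with those of their own groups (r of 0.961 to 0.970 and of 0.963 to 0.964). Both retentostat libraries at pH 3 and 50% CO2, which enter the effect at pH 3, correlated with replicate 1 at 50% CO2 with r of 0.978 and 0.980, above the values for its group mates, and with replicate 3 at 0.04% CO2 with r of 0.963 and 0.966, between the values for its group mates. The chemostat library at pH 3 and 50% CO2 correlated with them with r of 0.962 and 0.949, in this order. Its r with the other 4 libraries at pH 5 was 0.924 to 0.930. The 3 libraries at pH 3 and 0.04% CO2 went the other way. Their r was 0.913 to 0.924 with both libraries that stood apart and 0.957 to 0.970 with the other 4. The part of these likenesses in the effect at pH 3 and in the interaction was not tested. In both libraries that stood apart, 49 genes were over 2-fold higher than in the group mates, for example the ribosome assembly genes CGR1 and KRI1. Another 40 were over 2-fold lower, for example the hexose transporter gene HXT2 and the amino acid permease gene DIP5. None of the 29 differentially expressed genes was among these 89. Deviations over 2-fold within both groups widen the spread used in the test, so that this absence was largely set in advance. Since the pair holds 1 library of each group, changes are also given within the pair and within the other 4 libraries where the results rest on them. For mating type, the a-factor genes MFA1 and MFA2 ranged from 5916 to 29855 scaled FPKM, whereas 3 of the 4 alpha-specific genes, MF(ALPHA)2, STE3 and SAG1, ranged from 6.39 to 51.3, none of them at 0. The fourth, MF(ALPHA)1, was higher, at 868 to 2382 at 0.04% CO2 and 123 to 159 at 50% CO2.

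**Figure D1:**
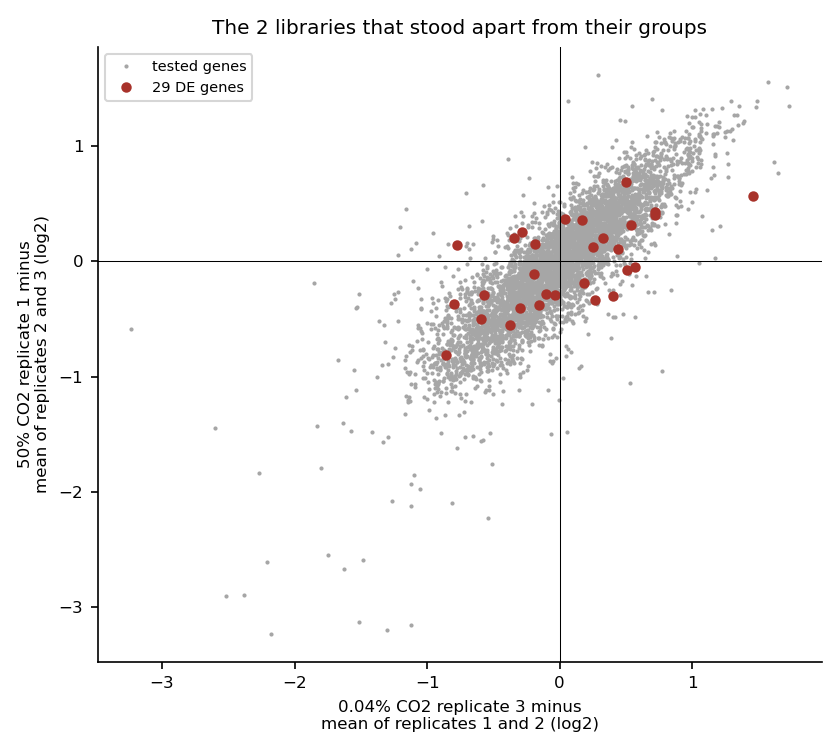
Deviation of replicate 3 at 0.04% CO2 (x axis) and of replicate 1 at 50% CO2 (y axis) from the mean of their group mates, in log2 scaled FPKM, for 5091 tested genes (grey) and the 29 differentially expressed genes (red). The points run along the diagonal with r = 0.846, so that genes high in one of these libraries were mostly high in the other.

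At pH 5, few genes were called as changed at 50% CO2 in the main fit with 3 libraries per group, and more of them fell than rose. A total of 29 genes were differentially expressed (DE), defined as a change of more than 2-fold with an adjusted p under 0.005 (limma, Benjamini-Hochberg). Of these, 5 were upregulated, which is 0.0982% of the genes tested, and 24 were downregulated, which is 0.471%. At an adjusted p under 0.05 and any size of change, 44 genes (0.864%) were upregulated and 68 (1.34%) were downregulated, and this limit is meant below where a gene is said to rise, fall or pass. The median log2 change of all genes was -0.01 and the median of its absolute size was 0.14. For all 112 genes, the 3 libraries at 50% CO2 lay above or below all 3 at 0.04% CO2, as was the case for 7.29% of the tested genes in the upward and 8.21% in the downward direction. Of the 83 genes among them that were not DE, 6 kept an adjusted p under 0.05 under all alternatives run and 59 lost it when 1 of the 6 libraries was left out. The latter included REG2, VID24, DLD1, MFA2, KSS1, MF(ALPHA)1, INO2, GRE1, HSP31, MSN2, ADE12, CTR3, CHS1, MKK1 and COS12. Without the pair that stood apart 33 genes were DE, including 22 of the 29, and all 29 had an adjusted p under 0.05. The number of DE genes depended on the libraries used. It was 12 without replicate 1 and 6 without replicate 2 at 0.04% CO2, 13 without replicate 2 and 12 without replicate 3 at 50% CO2, 10 without the retentostat libraries and 1 (NCE103) with the 6 libraries at pH 5 alone.

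**Figure D2:**
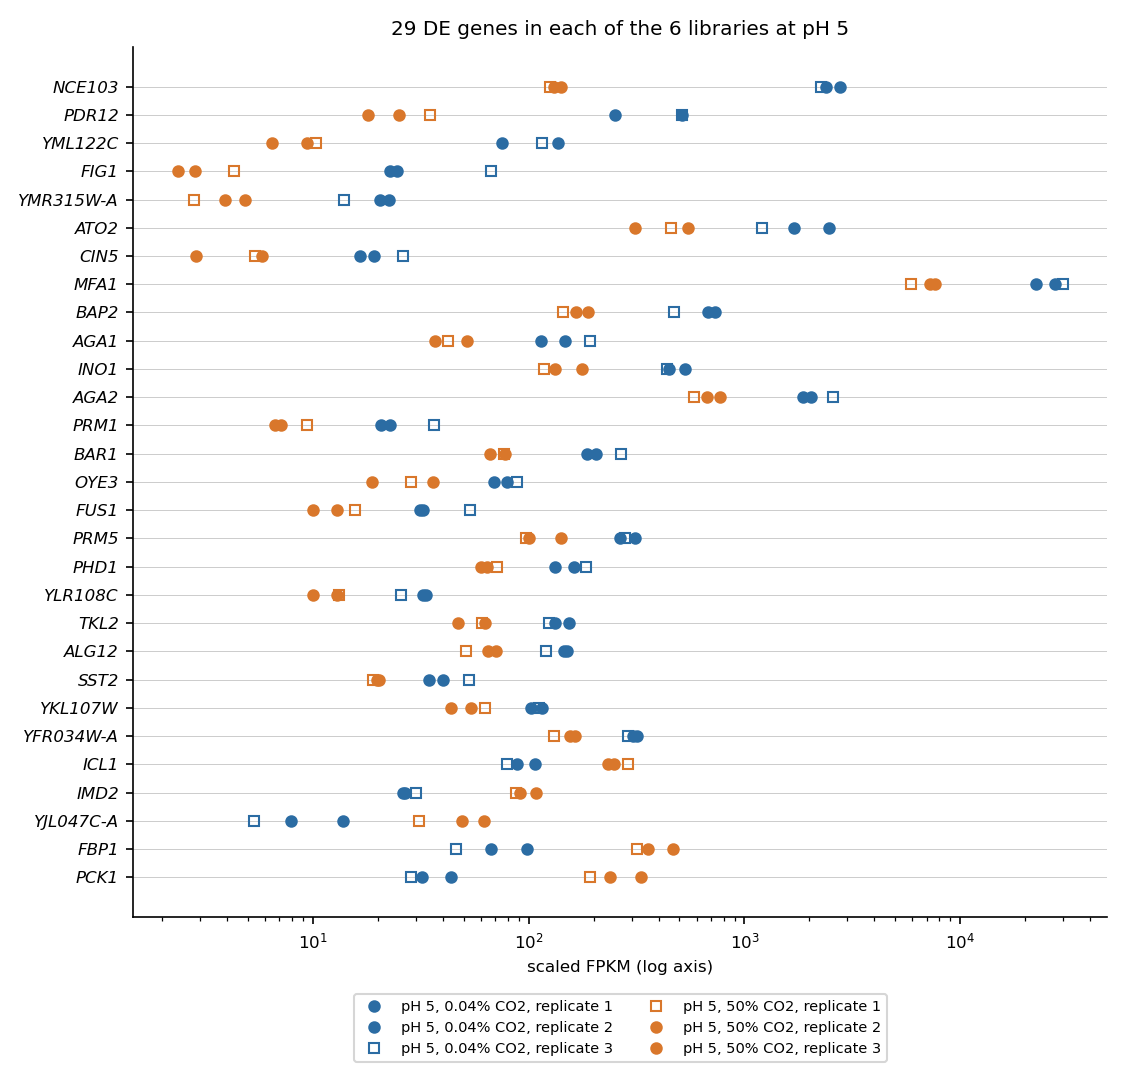
Scaled FPKM (log axis) of the 29 DE genes in the 6 libraries at pH 5, with 0.04% CO2 in blue and 50% CO2 in orange. Open squares are the libraries that stood apart, and the groups do not overlap for any of the 29 genes.

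**Figure D3:**
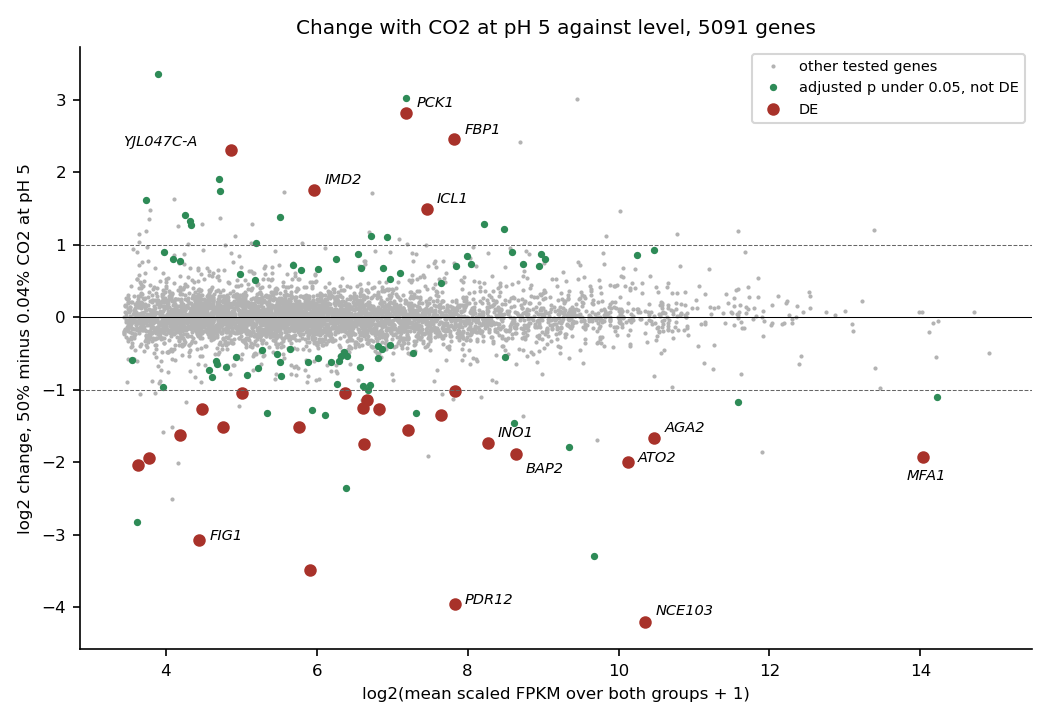
Log2 change at 50% relative to 0.04% CO2 (y axis) against the log2 mean level (x axis) of 5091 genes at pH 5. Red points are the 29 DE genes, green points the other genes with an adjusted p under 0.05, and dashed lines mark a 2-fold change. Most genes lie close to 0, and the largest fall is that of NCE103.

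The largest fall was that of NCE103, the carbonic anhydrase gene of yeast (chromosome XIV, 559814 to 560479). Its level was 2770, 2399 and 2255 scaled FPKM in the 3 libraries at 0.04% CO2 and 126, 142 and 131 in those at 50% CO2. All libraries at 50% CO2 were thus far below all at 0.04% CO2, and the means differed 18.6-fold. The log2 change was -4.20 ± 0.13 (SE) with an adjusted p of 5.11e-08 (limma), and NCE103 was DE under all 16 alternative settings tried. Of the 9 tested genes of carbonic anhydrase and bicarbonate-using enzymes, 2 fell and none rose, and their median change was -0.15. The log2 changes of genes that did not pass were -0.64 for ACC1, which makes malonyl-CoA, -0.53 for URA2 of pyrimidine synthesis, and 0.35 and -0.08 for the pyruvate carboxylase genes PYC1 and PYC2.

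Genes of gluconeogenesis and the glyoxylate cycle made up 3 of the 5 upregulated DE genes. PCK1, encoding phosphoenolpyruvate carboxykinase, was at 43.6, 32.0 and 28.5 scaled FPKM at 0.04% CO2 and at 192, 331 and 239 at 50% CO2. FBP1, encoding fructose-1,6-bisphosphatase, was at 97.8, 66.9 and 46.2 against 317, 469 and 358. ICL1, encoding isocitrate lyase of the glyoxylate cycle, was at 106, 88.5 and 79.4 against 288, 250 and 234. In each case the lowest library at 50% CO2 was above the highest at 0.04% CO2. The log2 changes were 2.82 ± 0.22 for PCK1, 2.47 ± 0.24 for FBP1 and 1.49 ± 0.18 for ICL1 (SE), with adjusted p of 1.93e-04, 6.66e-04 and 0.00209 (limma). Within the pair that stood apart they were 2.71, 2.75 and 1.85, and within the other 4 libraries 2.88, 2.33 and 1.31.

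Of the 10 genes of this list, 5 rose and none fell, and the median change was 0.89. The other risers were SFC1, the mitochondrial carrier of succinate and fumarate, by 0.90 and IDP2, the cytosolic isocitrate dehydrogenase, by 0.87. The enzyme genes next to them in these routes gave changes that did not pass, namely -0.29 for MLS1 (malate synthase), 0.52 for MDH2 (cytosolic malate dehydrogenase), 0.87 for ACS1 (acetyl-CoA synthetase) and 1.12 for CIT2 (peroxisomal citrate synthase). MLS1, which acts directly after isocitrate lyase, was at 66.8, 105 and 86.3 scaled FPKM at 0.04% CO2 and at 81.2, 54.4 and 74.6 at 50% CO2, and its groups overlapped. Among 16 tested regulators of carbon source use and factors for the turnover of gluconeogenic enzymes, 2 rose and none fell, with a median of -0.02. These were REG2, a regulatory subunit of the Glc7 phosphatase, by 1.11 and VID24, which recognises gluconeogenic enzymes for degradation, by 1.12. The activator genes CAT8 and SIP4 had changes of -0.40 and 1.02 and the repressor gene MIG2 one of 1.49, none of which passed. In the list of acetate, lactate and carnitine transport and use, 1 of 12 genes rose, DLD1 for mitochondrial D-lactate dehydrogenase, by 0.85, and 1 fell, with a median of 0.70. The one that fell was ATO2, of a family of ammonium and acetate transporters, from 1705, 2460 and 1200 scaled FPKM to 455, 309 and 550. Its means differed 4.08-fold, with an SE of 0.28 on the log2 scale (adjusted p 0.00437, limma), whereas its relatives ADY2 and ATO3 had changes of 1.14 and 0.67 that did not pass.

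Among transporter genes, PDR12 and BAP2 were DE, whereas most members of their lists did not pass. PDR12, the plasma-membrane pump that exports carboxylate anions, was at 252, 515 and 511 scaled FPKM at 0.04% CO2 and at 35.0, 18.0 and 25.1 at 50% CO2. The groups lay far apart although replicate 1 was the lowest at 0.04% CO2 and replicate 1 the highest at 50% CO2. Its change of -3.96 ± 0.30 (SE, adjusted p 1.42e-04, limma) was the second largest fall, and the means differed 16.4-fold. Of 20 tested genes of weak-acid and multidrug transport, the other one to fall was QDR1, a multidrug transporter, by 0.72, none rose and the median was 0.09. BAP2, a permease for branched-chain amino acids, went from 680, 727 and 473 scaled FPKM to 144, 166 and 189, without overlap. It was the only one of 22 tested genes of amino acid permeases and their sensor to pass, at -1.89 ± 0.18 (SE, adjusted p 6.00e-04, limma) beside a list median of 0.25.

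The largest group among the downregulated DE genes was that of mating, with 9 of the 24. They were 9 of the 36 tested genes of both mating lists, beside 0.471% of all tested genes. The paper left out of its enrichment a subset of genes that changed in every condition against pH 5 and 0.04% CO2. It describes this subset as enriched for the pheromone response. Of the 9 genes here, MFA1, AGA2 and BAR1 are a-specific genes and FIG1, AGA1, PRM1, FUS1, PRM5 and SST2 belong to the pheromone response. MFA1, encoding the a-factor precursor, was at 27423, 22459 and 29855 scaled FPKM at 0.04% CO2 and at 5916, 7670 and 7235 at 50% CO2, a change of -1.94 ± 0.18 (SE, adjusted p 5.29e-04, limma). AGA2, the binding subunit of a-agglutinin, was at 2044, 1861 and 2576 against 583, 771 and 671, and its anchor subunit AGA1 at 114, 147 and 192 against 42.4, 51.8 and 37.0. Both subunits fell, by 1.67 and 1.75 on the log2 scale. BAR1, a secreted protease that degrades alpha-factor, was at 187, 206 and 267 against 77.0, 77.4 and 66.1. Genes that act in cell fusion were expressed at lower levels and fell as well. FUS1 was at 31.4, 32.4 and 53.3 scaled FPKM at 0.04% CO2 and at 15.6, 12.9 and 9.98 at 50% CO2. PRM1, needed for fusion of the plasma membranes, was at 22.7, 20.7 and 36.4 against 9.41, 6.67 and 7.14. FIG1, a membrane protein induced by pheromone, was at 24.5, 22.9 and 67.0 against 4.32, 2.83 and 2.37, and had the largest change of the 9, -3.08 ± 0.36 (SE, adjusted p 0.00184, limma). Replicate 3 at 0.04% CO2, one of the libraries that stood apart, was the highest library for 8 of the 9 genes, PRM5 being the exception. Within the other 4 libraries the changes were -1.74 for MFA1, -1.44 for BAR1, -1.41 for FUS1 and -2.78 for FIG1. SST2, which dampens the pheromone signal, fell by 1.05 and PRM5, which is also induced by cell wall stress, by 1.35.

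All 7 a-specific genes were lower at 50% CO2 without overlap between groups, beside 8.21% of all tested genes. Of the 7, 5 fell, beside 1.34% of all tested genes, and the median change of the 7 was -1.35. Without the pair that stood apart 4 of the 7 fell, and MFA2 lost its call under 10 of 16 alternatives. STE2, the alpha-factor receptor gene, and STE6, the a-factor exporter gene, did not pass, with changes of -0.79 and -0.59. Of the 29 tested genes of the pheromone response, 9 fell, 1 rose and 19 did not pass, and the median was -0.48. Without the pair that stood apart, 15 fell and 1 rose. The riser was PRM4, by 1.22. In the kinase cascade, KSS1 fell by 0.54, whereas STE11, STE7, FUS3 and the transcription factor gene STE12 had changes of 0.05, 0.20, -0.37 and -0.26 that did not pass. In both libraries that stood apart the list was shifted upwards against the group mates, by medians of 0.46 and 0.36, and the part of this shift in the result was not tested.

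Of the 4 alpha-specific genes, 1 fell, with a list median of -0.85. This was MF(ALPHA)1, encoding alpha-factor, at 1216, 868 and 2382 scaled FPKM at 0.04% CO2 and at 159, 134 and 123 at 50% CO2. Its change of -3.29 ± 0.59 (SE, adjusted p 0.0169, limma) did not reach the limit for DE. TGAAACA was found in the promoters of 7 of the 9 DE mating genes (77.8%), among them those printed above for PRM1, FUS1 and AGA1, but not in the windows of MFA1 and FIG1. The motif is common in this group whether or not a gene changed. It was in 20 of the 36 tested genes of both mating lists (55.6%) and in 9 of the 14 of them that fell (64.3%). Among genes outside these lists that fell it was in 6 of 53 promoters (11.3%), and among all genes that rose in 3 of 42 (7.14%).

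**Figure D4:**
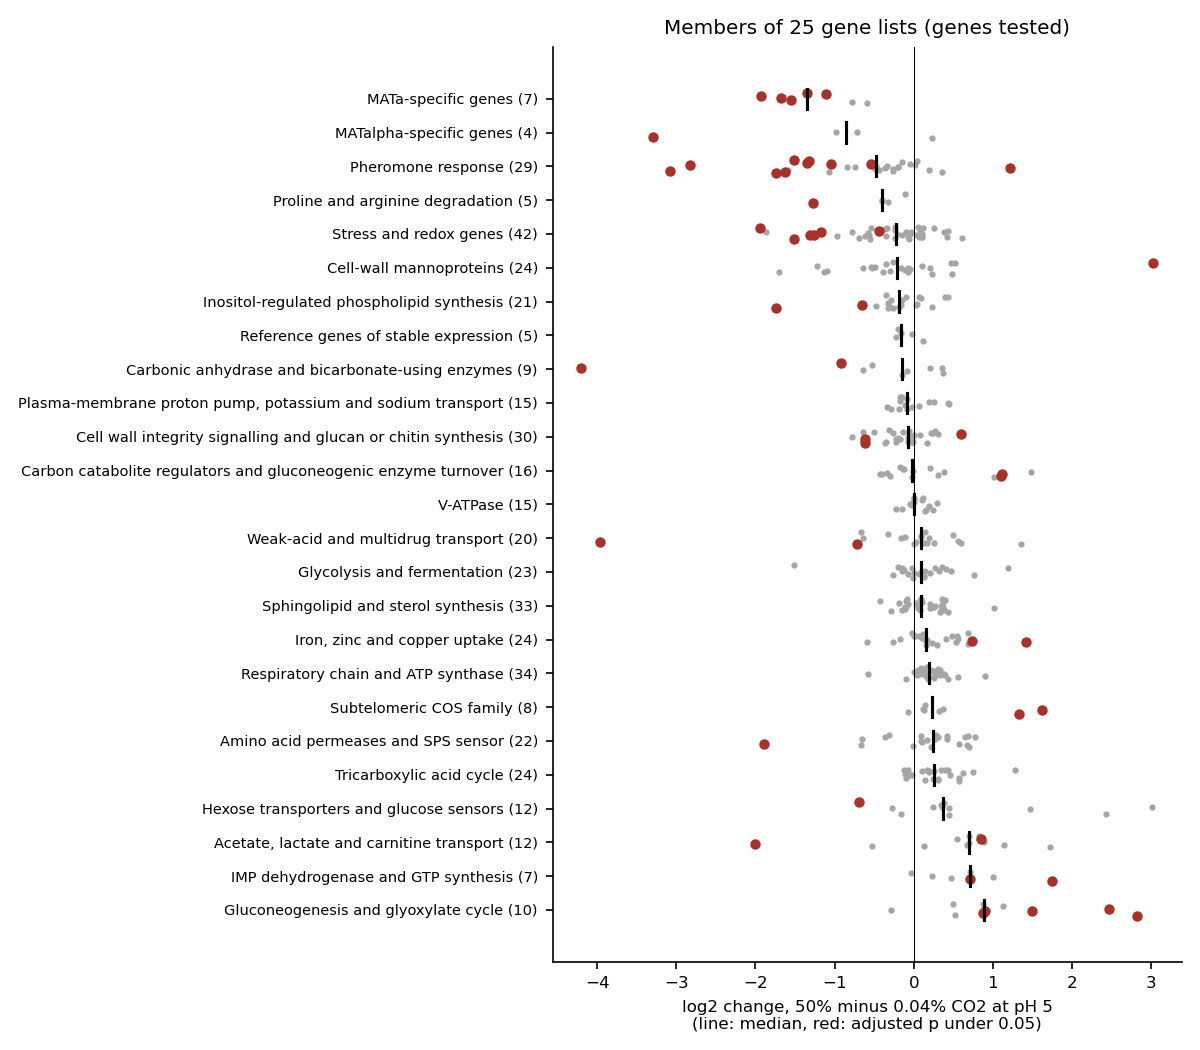
Log2 change at 50% relative to 0.04% CO2 at pH 5 (x axis) of each tested member of 25 gene lists, with the number tested in parentheses. Lines are medians, which run from -1.35 for a-specific genes (MATa-specific) to 0.89 for gluconeogenesis and the glyoxylate cycle, and red points have an adjusted p under 0.05.

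INO1, encoding the enzyme that makes inositol phosphate from glucose 6-phosphate, was at 449, 528 and 436 scaled FPKM at 0.04% CO2 and at 118, 177 and 133 at 50% CO2. Its groups were well separated and the change was -1.74 ± 0.20 (SE, adjusted p 0.00195, limma). INO2, one of the activators that bind the element marked in the INO1 promoter, fell by 0.65, a call that was lost under 8 of 16 alternatives. The other genes among 21 of inositol-regulated phospholipid synthesis did not pass, and the median was -0.19. Of 5 genes of proline and arginine degradation, PUT1, encoding proline oxidase, fell by 1.28, with a list median of -0.40.

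Of 42 stress and redox genes, 6 fell, none rose and the median was -0.22. CIN5, encoding a basic leucine zipper transcription factor, was at 19.1, 16.5 and 26.3 scaled FPKM at 0.04% CO2 and at 5.38, 2.86 and 5.83 at 50% CO2. OYE3, encoding an NADPH oxidoreductase, was at 79.6, 68.9 and 88.5 against 28.5, 18.8 and 36.0. TKL2, encoding the minor transketolase of the pentose phosphate pathway, was at 132, 153 and 125 against 60.5, 46.9 and 63.0. These 3 were DE, with log2 changes of -1.94, -1.51 and -1.26, and none of them overlapped between groups. The others to fall were GRE1, a hydrophilin gene, by 1.17, the chaperone gene HSP31 by 1.32 and MSN2, which encodes an activator of the general stress response, by 0.44. Outside the lists, PHD1, encoding a transcription factor of pseudohyphal growth, went from 133, 162 and 185 scaled FPKM to 71.6, 60.4 and 63.9, a change of -1.27. ALG12, a mannosyltransferase gene of N-glycan assembly, went from 146, 150 and 120 to 51.3, 65.1 and 70.9, a change of -1.14.

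IMD2, encoding IMP dehydrogenase of GTP synthesis, was at 26.7, 26.1 and 30.1 scaled FPKM at 0.04% CO2 and at 87.4, 108 and 91.2 at 50% CO2. The change was 1.75 ± 0.24 (SE, adjusted p 0.00392, limma). Its close relatives IMD3 and IMD4 had changes of 0.47 and 1.00 that did not pass, and since reads matching several copies were not counted, levels within this family are uncertain. ADE12, of AMP synthesis, rose by 0.71, so that 2 of 7 genes of the list rose, with a median of 0.71. Of 24 tested genes of iron, zinc and copper uptake, 2 rose and none fell, with a median of 0.16. FET4, a low-affinity iron transporter, went from 10.4, 8.70 and 9.18 scaled FPKM to 23.4, 28.7 and 28.6, and CTR3, a copper transporter, rose by 0.74.

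In the list of cell wall integrity signalling and glucan or chitin synthesis, 2 of 30 genes fell and 1 rose, with a median of -0.08, and without the pair that stood apart 6 fell. SLT2, the last kinase of the pathway, fell by 0.62 and the chitin synthase gene CHS1 by 0.62, the latter a call that was lost under 8 of 16 alternatives. MKK1, which encodes a kinase directly upstream of Slt2, rose by 0.60, and PKC1, the protein kinase C at the head of the cascade, had a change of -0.17 that did not pass. HPF1, encoding a cell-wall mannoprotein, was at 41.7, 28.4 and 15.6 scaled FPKM at 0.04% CO2 and at 94.4, 325 and 362 at 50% CO2. It rose by 3.03 ± 0.47 (SE, adjusted p 0.0073, limma), by 2.53 within the pair that stood apart and by 3.28 within the other 4 libraries. It was the only one of 24 tested mannoprotein genes to pass, beside a list median of -0.21, and without the pair 2 rose and 4 fell. In both libraries of the pair this list was shifted downwards, by medians of -0.68 and -0.95. COS2 and COS12, of a subtelomeric family of near-identical copies, rose by 1.62 and 1.32, as the 2 of 8 family members that passed, with a median of 0.23. The largest rise of all tested genes was that of YAR068W, of unknown function, from 1.62, 1.26 and 0.672 scaled FPKM to 6.85, 44.9 and 28.3. YAR068W was tested only because of its levels at 50% CO2, so that a large fall of this gene could not have been seen. It was not DE, with a change of 3.35 ± 0.52 (SE, adjusted p 0.00692, limma), and the levels of both the COS genes and YAR068W are uncertain owing to similar copies.

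The remaining 6 DE genes carry systematic names only. YML122C went from 75.5, 137 and 115 scaled FPKM to 10.3, 6.48 and 9.35, a change of -3.48 ± 0.22 (SE, adjusted p 4.97e-05, limma). YJL047C-A went from 13.8, 7.92 and 5.32 to 30.9, 62.0 and 49.0, a change of 2.31. Both overlap an annotated non-coding gene, and since the use of strand in counting is not settled by the sources used here, their reads cannot be assigned with certainty. YMR315W-A, YLR108C, YKL107W and YFR034W-A fell by 2.04, 1.27, 1.04 and 1.02, and YFR034W-A has no position in the annotation used here.

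Of 12 tested hexose transporter and sensor genes, the glucose sensor gene RGT2 fell by 0.69 and none rose, with a median of 0.37. HXT3, a low-affinity transporter, was at 223, 200 and 57.8 scaled FPKM at 0.04% CO2 and at 1020, 676 and 1997 at 50% CO2. Its groups did not overlap, but its change of 3.01 ± 0.70 (SE) did not pass (adjusted p 0.0585, limma). No gene passed in the lists of glycolysis and fermentation (23 tested, median 0.09), the tricarboxylic acid cycle (24, 0.25), the respiratory chain and ATP synthase (34, 0.19) or sphingolipid and sterol synthesis (33, 0.09). Nor did any among the V-ATPase genes (15, 0.01), those of the plasma-membrane proton pump with potassium and sodium transport (15, -0.09) and the reference genes (5, -0.17). Over all genes, 662 had an unadjusted p under 0.05 in limma, and a change that did not pass is not shown to be absent.

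The changes of the 29 DE genes were then compared with the effect of CO2 at pH 3. That effect is a difference between libraries at pH 3 alone, but library factors and the spread behind p-values came from all 12 libraries. The 29 genes were chosen partly for a small spread, so that passing at pH 3 is not independent of this choice. At pH 3 many more genes passed, 23.6% of those tested upwards and 27.9% downwards. The libraries at pH 3 and 50% CO2 resembled replicate 1 at pH 5 and 50% CO2, which stood apart, more than they resembled its group mates. The part of this likeness in these counts was not tested. Per the paper, glucose-limited cultures at pH 3 oscillated and were sampled regardless. It lists a lower viability by staining and a higher growth rate of viable cells at pH 3 with 0.04% than with 50% CO2. It reports no significant effect of CO2 on viability. The part of these culture differences in the effect at pH 3 was not tested either. Of the 29 genes, 24 had the same sign at both pH values and 22 had the same sign and passed at pH 3, whereas over all genes 47.9% had the same sign and 25.5% had the same sign and passed. All 20 DE genes outside the mating lists had the same sign and 19 passed, the exception being YJL047C-A with a change of 0.27. NCE103 was at 3758, 4617 and 4531 scaled FPKM at pH 3 and 0.04% CO2 and at 147, 156 and 152 at pH 3 and 50% CO2, a change of -4.81 ± 0.13 (SE). The changes at pH 3 were 2.44 for PCK1, 1.37 for ICL1, 1.69 for IMD2, -1.91 for BAP2 and -1.14 for INO1. FBP1 rose by 1.23, less than at pH 5, with a difference between both effects of 1.24 ± 0.33 (SE, adjusted p 0.0274, limma). PDR12 was at 673, 694 and 740 scaled FPKM at 0.04% CO2 and at 138, 253 and 184 at 50% CO2, a change of -1.91. The difference between its effects at both pH values was -2.05 ± 0.42 (SE, adjusted p 0.0102, limma).

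**Figure D5:**
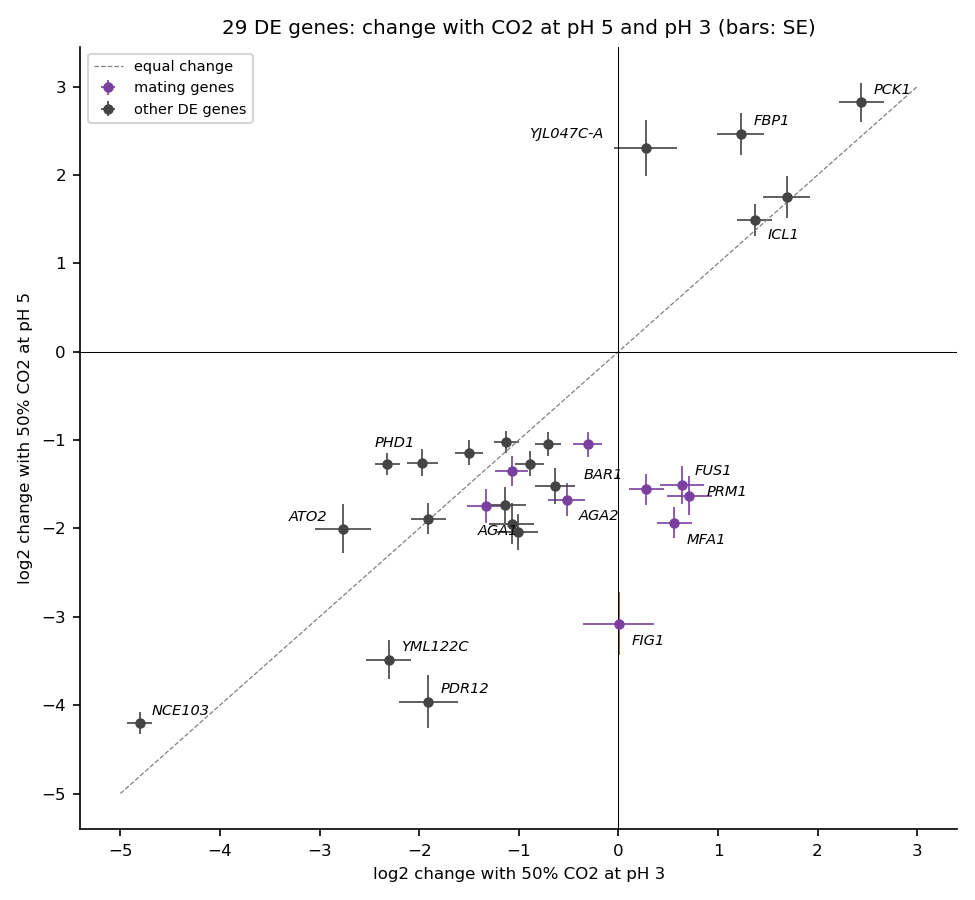
Log2 change with 50% CO2 at pH 5 (y axis) and at pH 3 (x axis) of the 29 DE genes, with bars of 1 SE and a dashed line of equal change. All non-mating genes (dark grey) have the same sign on both axes, whereas of the 9 mating genes (purple) 5 lie right of 0 at pH 3.

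The mating genes differed from this pattern. Of the 9, 4 had the same sign at pH 3 and 3 of them passed. MFA1 was at 1588, 1408 and 1282 scaled FPKM at pH 3 and 0.04% CO2 and at 1624, 2695 and 2114 at 50% CO2, below every library at pH 5. FIG1 was at 1.95 to 2.49 and 2.03 to 2.58, and BAR1 at 11.3 to 17.5 and 12.3 to 20.4, so that these genes were low at pH 3 with either gas. The changes at pH 3 were 0.56 for MFA1, 0.71 for PRM1, 0.64 for FUS1, 0.28 for BAR1 and 0.01 for FIG1, but -1.33 for AGA1, -1.07 for PRM5, -0.52 for AGA2 and -0.31 for SST2. The interaction of pH and CO2 passed in 24.7% of all genes, in 7 of the 9 mating genes and in 9 of the other 20 DE genes. It was -2.50 ± 0.25 for MFA1 and -3.08 ± 0.50 for FIG1 (SE, adjusted p 0.00185 and 0.00484, limma). The 29 genes were chosen by their change at pH 5, which enters the interaction, so these counts are a description. The number of DE genes with an interaction, 16, was 10 without replicate 3 at 50% CO2 and pH 5, and also 10 without the retentostat libraries.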

How the data were processed

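Polyadenylated RNA of S. cerevisiae CEN.PK113-7D was sequenced in 26 libraries, of which 12 at 0.025 per hour entered the fit. Per the submitters' processing notes, the authors used STAR 2.5.3a with build R64, SAMtools, HTSeq and edgeR, and per the methods ambiguously mapped reads were removed. The deposited values are FPKM per gene, computed by the authors relative to the reads counted on genes in each library, without further scaling between libraries. The growth text of libraries in compressed air also states 50% CO2, against their titles and conditions, which were followed.

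FPKM were scaled by the median ratio to each gene's geometric mean over the 12 libraries (factors of 0.922 to 1.13 at pH 5) and tested as log2(scaled FPKM + 1), with which changes of low genes are understated. limma 3.58.1 (R 4.3.3, moderated with a trend in the mean level, 7 residual degrees of freedom) was fitted with 5 label groups, and p-values were adjusted over all 5091 genes by the Benjamini-Hochberg method. The effect at pH 3 was that of 3 libraries at 50% CO2 against 3 at 0.04% CO2, and the interaction was the effect at pH 5 minus that at pH 3. Named genes were all DE genes, up to 4 members with the smallest p of each of 25 lists, and NCE103, PCK1, FBP1, ICL1, PKC1 and PDR12. Further genes, including other list members past the test, were named after their values were seen. A list member past the test is not reported here by name. The members and lists were chosen with earlier results of these data known. Of the 6600 identifiers, 5917 were found in the R64 annotation, from which promoters were read. Alternatives changed the scaling, pseudocount, filter, libraries, weights, replicate block and thresholds. The model code was tested on simulated data. Figures and tables were made with Python 3.11.15, pandas 2.3.3, numpy 2.4.6, scipy 1.17.1 and matplotlib 3.10.9.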

Additional observations from a re-analysis of the deposited data

Results flagged for a closer look

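The effect of 50% CO2 at pH 5 differed from that at pH 3 by a test of the interaction (limma, adjusted p under 0.05) for 16 of the 29 DE genes, and 14 further genes passed in opposite directions at both pH values. The latter were chosen for these opposite calls, from which a call in the interaction follows, so that it is no independent test. All values below are log2 changes at pH 5 minus those at pH 3. Among mating genes the differences were -5.55 for MF(ALPHA)1, -3.08 for FIG1, -2.50 for MFA1, -2.34 for PRM1, -2.15 for FUS1, -1.83 for BAR1, -1.74 for MFA2, -1.15 for AGA2 and -0.74 for SST2. Other DE genes with a larger effect at pH 5 were PDR12 (-2.05), YML122C (-1.18), YMR315W-A (-1.03), OYE3 (-0.88), FBP1 (1.24) and YJL047C-A (2.03). For 3 DE genes the fall was smaller at pH 5 than at pH 3, namely NCE103 (0.60), PHD1 (1.05) and TKL2 (0.71).

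Genes that fell at pH 5 and rose at pH 3 also included YEF1 (-1.64), HOP2 (-1.56), CIS1 (-1.68), YPT53 (-1.32) and URA10 (-0.83). Their calls at pH 5 were lost under 5, 11, 7, 10 and 3 of the alternatives run, in this order. The calls of IMA5 and MKK1, named next, were lost under 6 each. Genes that rose at pH 5 and fell at pH 3 were HPF1 (4.52), YAR068W (4.79), SUT1 (1.64), SUT2 (1.18), IMA5 (1.38), AIM3 (1.32) and MKK1 (0.99). HPF1 and YAR068W had the largest differences in this direction, and HPF1 was at 1304, 1016 and 1027 scaled FPKM at pH 3 and 0.04% CO2 and at 240, 485 and 522 at pH 3 and 50% CO2. Both genes were low in the pair at pH 5 that stood apart, with log2 deviations from the group mates of -1.10 and -1.85 for HPF1. Those of YAR068W were -0.54 and -2.22. All 3 libraries at pH 3 and 50% CO2, including the chemostat, correlated more strongly with replicate 1 at 50% CO2 of that pair than with its group mates. Genes were selected for their change at pH 5, and 2 of these 3 libraries came from the first sampling point of retentostats, before cell retention. The part of this likeness and of the retentostats in these differences was not tested.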

How the results depend on the processing

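The 29 DE genes kept their direction under all 16 alternative fits, and 27 of them kept an adjusted p under 0.05 (limma) in each. The direction was largely set in advance. The groups did not overlap for these genes, so that leaving out libraries at pH 5 could not reverse it. Several other fits leave the log2 change at pH 5 as it was. The exceptions were FUS1 and SST2, which were above this limit when the 6 libraries at pH 5 were fitted alone. Of the 173 genes named or with an adjusted p under 0.05, none changed direction with a call, but 77 of the 83 genes that passed without being DE lost their call under at least 1 alternative. The counts moved with the fit. In place of 29 DE genes and 112 genes with an adjusted p under 0.05, there were 1 and 43 with the 6 libraries at pH 5 alone, in a fit with fewer samples, and 96 and 1441 with array weights, whose estimation stopped before convergence. Without the 2 retentostat libraries 10 genes were DE, and 10 of the 29 had an interaction in place of 16. With an adjusted p under 0.05 and a 2-fold change, 55 genes passed. Leaving out 1 library at pH 5 gave 6 to 29 DE genes, 66 to 191 genes with an adjusted p under 0.05 and 10 to 19 interactions. The latter count of genes was 191 without replicate 1, 66 without replicate 2 and 67 without replicate 3 at 50% CO2. Without both libraries that stood apart, a choice made after seeing the data, it was 259, and 33 genes were DE. Without scaling 22 of the 29 had the same sign at pH 3, and 24 in each other fit that included the libraries at pH 3. The cause of these shifts was not tested.

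The deviations of samples with the same replicate number correlated with r of -0.71, 0.51 and -0.80. The 2 libraries that stood apart carry different numbers, correlated with r = 0.846 and enter the group means behind each of these values. Whether replicate numbers pair the samples can therefore not be told from them. With a replicate block 7 genes were DE, 69 had an adjusted p under 0.05, 24 of the 29 had the same sign at pH 3 and 11 had an interaction. The part of sequencing depth in which genes passed was not tested.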

Other observations

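The following genes outside the lists were named after their values were seen, and each lost its adjusted p under 0.05 (limma) when at least 1 single library at pH 5 was left out. GLN1, encoding glutamine synthetase, rose by 0.80 at pH 5 and had a change of 1.09 at pH 3. ALD6, encoding cytosolic acetaldehyde dehydrogenase, rose by 0.93, YHB1, encoding flavohaemoglobin, by 0.86 and LYS21, encoding homocitrate synthase of lysine synthesis, by 0.73. ARG4, encoding argininosuccinate lyase of arginine synthesis, fell by 0.95. PRR2, encoding a protein kinase, was at 120, 132 and 154 scaled FPKM at 0.04% CO2 and at 54.9, 12.8 and 23.0 at 50% CO2.

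A further 2 libraries at pH 5, 0.04% CO2 and 0.025 per hour came from the first sampling point of laboratory retentostats. The labels and the methods differ on how they were sequenced, and their medium lacked the additional iron and biotin, so that values are set side by side without a test. NCE103 was at 1251 and 1529 scaled FPKM in these libraries, PCK1 at 77.8 and 39.5 and PDR12 at 460 and 630. MFA1 was at 2136 and 2798, which is below all 6 chemostat libraries at pH 5, whereas BAR1 was at 136 and 176, FUS1 at 31.0 and 42.3, AGA1 at 113 and 193 and FIG1 at 11.9 and 26.4.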
